A study of Mus musculus with 6 samples.

Results

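The integrin and laminin genes of the mouse were examined in cultured bone marrow mesenchymal stromal cells (BM MSCs). All genes of the deposited count table whose symbol is that of an integrin α subunit, an integrin β subunit from 1 to 8 or a laminin α, β or γ chain were taken, which gave 37 of the 56980 genes. Of these 37 genes, 18 encode integrin α subunits, 8 encode integrin β subunits and 11 encode laminin chains. They were split into the laminin chains with the basement membrane integrin subunits (16 genes), the leukocyte integrin subunits (8 genes) and the other integrin subunits (13 genes). The rule uses the symbols alone, although earlier results of these data were known when it was set.

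Integrins are receptors at the cell surface that join the cytoskeleton to the extracellular matrix or to counter-receptors on other cells. Each is a pair of 1 α and 1 β subunit, and the pair sets the ligand. Laminins are trimers of 1 α, 1 β and 1 γ chain that form the sheet-like network of basement membranes, to which type IV collagen, nidogens and perlecan are joined. In the marrow, sinusoidal endothelium and the cells around vessels make laminins, stromal cells bind collagen and fibronectin through β1 integrins, and leukocytes, platelets and osteoclasts carry integrin pairs of their own.

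The TranspCtrl group (3 samples) and the TranspExer group (3 samples) came from female mice that had undergone OVX at 8 weeks of age, had been pretreated with antibiotics and then received FMT for 8 weeks. The donors were OVX mice that were sedentary for TranspCtrl and treadmill-exercised for TranspExer, so that OVX, antibiotics and FMT were common to both groups and only the donors differed. Marrow flushed from femurs and tibias was cultured for 7 days with washes, and no sorting step was described. The comparison asks how the transcriptome of the recipients' BM MSCs differs with the donors' exercise. The labels do not say whether the 3 samples of a group came from separate mice, so p-values measure the spread between these samples.

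The deposited values are expected counts, that is, read counts estimated per gene, and between 10.1% and 12.2% of them per sample were not whole. Totals ran from 17647638 to 21319166 counts per sample. Levels are given as CPM, counts scaled to the sample's total and its TMM factor, on which scale the floor of 3 counts equalled 0.139 to 0.174 CPM, a limit that covers counting error only. TranspCtrl replicate 1 lay apart from TranspCtrl replicates 2 and 3, at distances of 62.8 and 60.2 in log2 CPM over all tested genes, against 37.0 between those replicates and 42.8 to 43.9 within TranspExer. The cultures expressed stromal genes, with the 12 stromal markers summing to 12099 to 19897 CPM in TranspCtrl and 12978 to 14234 CPM in TranspExer. The lowest of these sums was that of TranspCtrl replicate 1. Leukocyte transcripts were also present, and the pan-leukocyte gene *Ptprc* was at 281 CPM in TranspCtrl and 294 CPM in TranspExer (mean, n = 3).

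Of the 37 genes, 33 passed the low-count filter and 4 did not (*Itgb4*, *Itgb6*, *Lama3* and *Lamc3*). In the quasi-likelihood test of edgeR, with Benjamini-Hochberg adjustment over 15190 genes, 12 of the 33 were higher in TranspExer at an adjusted p-value under 0.05, beside 16.6% of all tested genes, and 7 were lower, beside 15.5%. DEGs, which also had a fold change of at least 2, numbered 4 upregulated members (*Itgad*, *Itga2b*, *Itgb3* and *Itga3*), beside 3.50% of all genes, and 2 downregulated members (*Lama2* and *Itga7*), beside 5.28%. All 3 TranspExer samples were above all 3 TranspCtrl samples for 14 of the 33 tested members, beside 27.2% of all genes, and below them for 10, beside 25.1%. The median log2 fold change was 0.07 over the 33 members and -0.02 over all tested genes. Counts scaled by library size alone, in place of TMM, gave 2013 higher and 2962 lower genes instead of 2523 and 2361, and 12 higher and 8 lower members. Without TranspCtrl replicate 1, 13 members were higher and 8 lower, beside 22.1% and 19.6% of all genes tested in that fit. The members then held 3 upregulated and 2 downregulated DEGs, beside 506 and 776 of all 15494 genes tested.

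**Figure D1:**
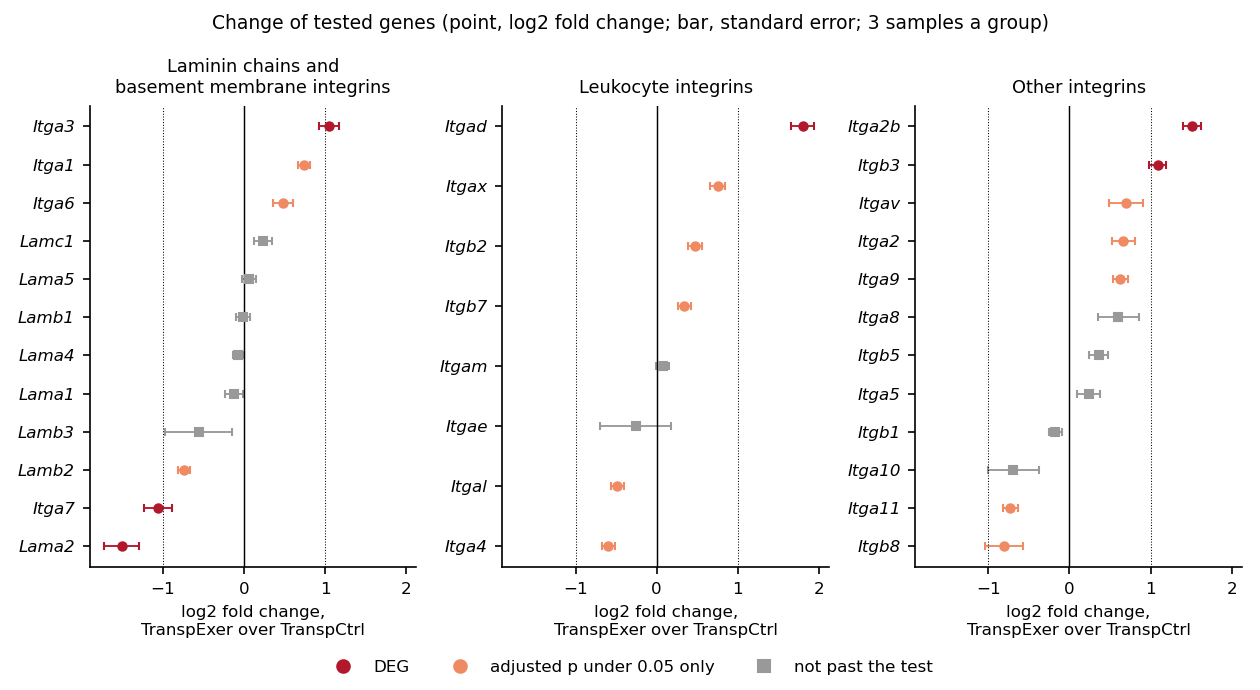
Log2 fold change (TranspExer over TranspCtrl, horizontal axis) of 32 of the 33 tested integrin and laminin genes in 3 panels by class, with the standard error as a bar, 3 samples a group, and dotted lines at a 2-fold change. The 4 upregulated DEGs lie between 1.05 and 1.80, the 2 downregulated DEGs at -1.06 and -1.51, and most laminin chains near 0.

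Among the laminin chains and basement membrane integrins, 3 of the 13 tested genes were higher and 3 lower, with a median log2 fold change of -0.07. Of the 8 leukocyte integrin genes, all tested, 4 were higher and 2 lower, with a median of 0.21. Of the 12 tested other integrin genes, 5 were higher and 2 lower, with a median of 0.48. These counts stand beside 16.6% higher and 15.5% lower of all tested genes. By kind of chain, 9 of 18 α subunit genes and 3 of 6 tested β subunit genes were higher, as were 0 of the 9 tested laminin chain genes, beside 16.6% of all genes, and the difference between these kinds was not tested. That count of 0 comes from edgeR, in which 0 laminin chains were also higher at an unadjusted p-value under 0.05, and DESeq2 gave 0 as well.

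**Figure D2:**
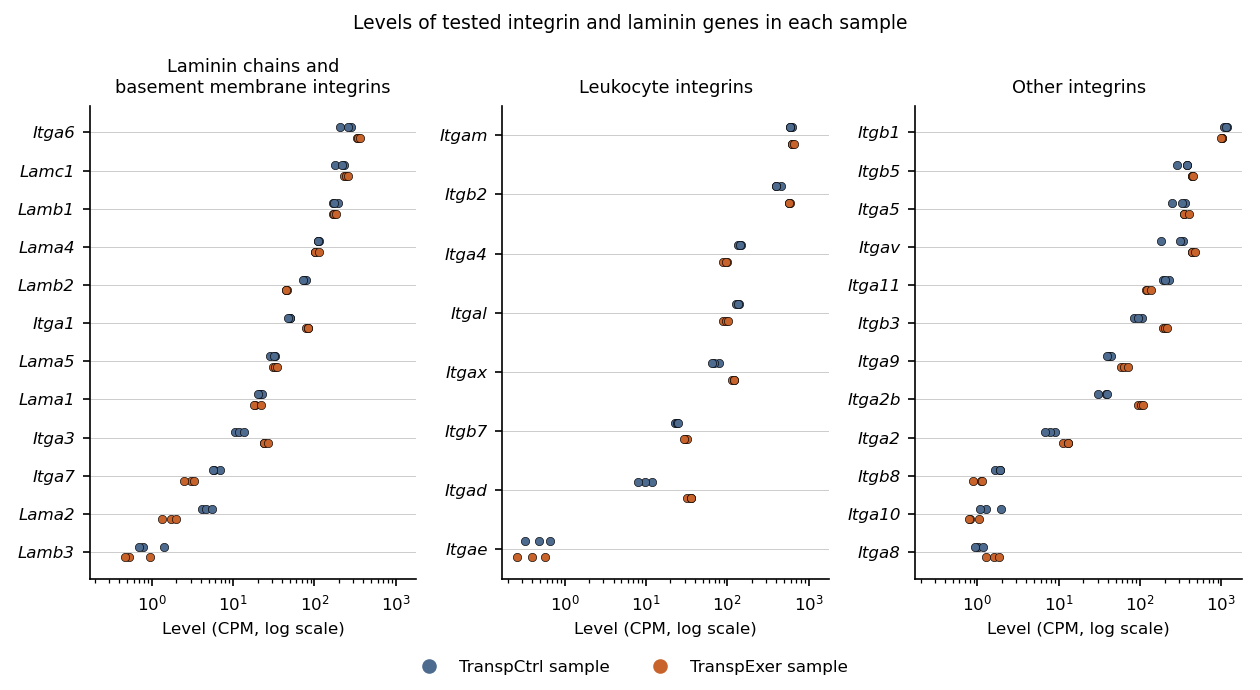
CPM of 32 of the 33 tested genes in every sample (horizontal log axis), with 1 row a gene, 1 point a sample and the class as the panel. Levels run from under 1 CPM for *Itgae* to between 978 and 1178 CPM for *Itgb1*, and the rows with separated colours are the genes whose groups did not overlap.

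Promoter sequences from RefSeq were at hand for 23 of the 37 genes (26 start sites), 250 bases before to 50 bases after the start. Those of the 3 DEGs with an entry are shown on the coding strand, 5′ to 3′, because each of these genes changed by over 2-fold. Positions are counted from 0 at the start site. Build GRCm38.p6 places *Itga2b* at chr11:102469834-102470133 (minus strand), the start sites of *Itga3* at chr11:95076665-95076964 and chr11:95069149-95069448 (minus strand) and *Lama2* at chr10:27616893-27617192 (minus strand). The *Lama2* window lies inside the gene, whose annotated 5′ end is at 27619758, so it belongs to an internal start site. Capitals mark matches to a GATA core (AGATAA), an ETS core of the PU.1 type (GAGGAA) or a GC box (GGGCGG), on either strand.
Itga2b: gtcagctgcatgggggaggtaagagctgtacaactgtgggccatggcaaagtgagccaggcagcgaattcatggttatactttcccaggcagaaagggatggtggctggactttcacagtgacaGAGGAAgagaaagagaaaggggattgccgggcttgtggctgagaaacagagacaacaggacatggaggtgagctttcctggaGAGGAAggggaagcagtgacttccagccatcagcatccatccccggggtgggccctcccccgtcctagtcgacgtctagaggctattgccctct
Itga3 (start site at the 5′ end of the gene): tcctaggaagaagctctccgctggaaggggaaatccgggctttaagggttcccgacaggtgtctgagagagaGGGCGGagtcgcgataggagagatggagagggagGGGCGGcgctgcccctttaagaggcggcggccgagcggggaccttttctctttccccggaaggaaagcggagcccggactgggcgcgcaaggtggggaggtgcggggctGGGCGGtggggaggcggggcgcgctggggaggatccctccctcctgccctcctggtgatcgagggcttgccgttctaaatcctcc
Itga3 (internal start site): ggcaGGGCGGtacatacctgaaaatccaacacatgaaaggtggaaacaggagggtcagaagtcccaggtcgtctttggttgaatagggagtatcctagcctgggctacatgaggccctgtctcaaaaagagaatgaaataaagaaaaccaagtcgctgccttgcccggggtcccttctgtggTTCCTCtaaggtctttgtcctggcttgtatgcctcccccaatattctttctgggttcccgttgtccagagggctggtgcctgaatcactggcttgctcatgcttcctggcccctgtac
Lama2: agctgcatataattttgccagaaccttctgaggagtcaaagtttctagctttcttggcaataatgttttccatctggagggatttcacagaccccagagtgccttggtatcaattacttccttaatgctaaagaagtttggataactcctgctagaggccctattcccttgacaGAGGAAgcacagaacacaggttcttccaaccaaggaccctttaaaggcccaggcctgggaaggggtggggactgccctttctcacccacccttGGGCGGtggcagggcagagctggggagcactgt
The *Itga2b* window held the ETS core at positions -126 and -44 from the start, and the internal *Lama2* window held it at -76 and a GC box at 17. The *Itga3* window at the 5′ end of the gene held 3 GC boxes, at -178, -144 and -35, and the internal one held a GC box at -246 and the ETS core at -68. Over all 32851 promoters in the same table, 28.3% held GAGGAA, 35.7% GGGCGG and 11.2% AGATAA, and over the 26 member promoters these matches were found in 14, 12 and 1. The letters TATAAA of a TATA box were in 13.6% of all promoters and in 0 of the member promoters. These are matches of letters in a fixed window, and none of them was measured as a bound site.

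The laminin α chains end in the globular domains that integrins bind, and they give each trimer its identity. *Lama2* (ENSMUSG00000019899, chr10:26980036-27619758, minus strand), the chain of muscle and peripheral nerve laminins, was at 4.15, 4.67 and 5.49 CPM in TranspCtrl replicates 1, 2 and 3. In TranspExer it was at 1.73, 1.98 and 1.34 CPM. Every TranspExer sample was thus below every TranspCtrl sample. *Lama2* fell from 4.77 ± 0.673 to 1.68 ± 0.320 CPM (SD, n = 3), with a log2 fold change of -1.51 ± 0.21 (SE, edgeR adjusted p = 0.00162), on 27 to 118 counts per sample. *Lama4*, the α chain of vascular basement membranes, was the α chain with the highest level per length and did not differ beyond the spread of the samples. It was at 111 ± 1.70 CPM in TranspCtrl and 106 ± 5.72 CPM in TranspExer (log2 fold change -0.07 ± 0.07 SE, adjusted p = 0.512). *Lama5*, the other main endothelial α chain, had a log2 fold change of 0.06 ± 0.09 (SE), and *Lama1*, which is best known from embryonic basement membranes, one of -0.12 ± 0.11 SE. *Lama3*, the epithelial α chain, was below the filter at 5 to 7 counts in TranspCtrl and 8 to 17 in TranspExer.

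Of the β chains, *Lamb2* (ENSMUSG00000052911, chr9:108479736-108490530, plus strand), the β chain of synaptic, kidney and mature vascular laminins, was at 74.2, 79.6 and 71.8 CPM in the TranspCtrl samples. The TranspExer samples held 44.5, 46.3 and 44.1 CPM, a tight group below all TranspCtrl samples. *Lamb2* fell from 75.2 ± 3.96 to 45.0 ± 1.19 CPM (SD, n = 3), with a log2 fold change of -0.74 ± 0.07 (SE, edgeR adjusted p = 0.000372). The widely expressed *Lamb1* was at 178 ± 13.3 and 177 ± 7.17 CPM, a log2 fold change of -0.01 ± 0.08 (SE). *Lamb3*, a chain of epithelial laminin, had 8 to 29 counts per sample and a log2 fold change of -0.56 ± 0.42 (SE, adjusted p = 0.332). It is overlapped by *Hsd11b1* on the opposite strand, which had a mean count of 307 against 16 for *Lamb3*, so its reads are uncertain. The γ chain found in most laminins, *Lamc1*, was at 209 ± 27.9 and 245 ± 14.5 CPM (log2 fold change 0.23 ± 0.11 SE, adjusted p = 0.147). TranspCtrl replicate 1 was the lowest sample for *Lamc1*, at 178 CPM. *Lamc3* had at most 2 counts in any sample, under the floor.

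Levels of different chains were compared per kilobase of exons (CPM per kb), and each chain was expressed as a share of its kind. *Lama4* made up 63.6% ± 0.823 of the α chain level in TranspCtrl and 63.5% ± 0.484 in TranspExer (SD, n = 3). *Lama5* followed with 18.9% ± 0.938 and 20.6% ± 0.564, and *Lama1* with 15.3% ± 0.788 and 14.6% ± 0.834. *Lama2* accounted for 2.02% and 0.752% of the α chain level. The β chains showed the widest difference, since *Lamb1* made up 57.8%, 59.6% and 59.3% of the β chain level in the TranspCtrl samples and 69.9%, 69.7% and 71.6% in the TranspExer samples. Its share was 11.5 points higher in TranspExer, and that of *Lamb2* 11.4 points lower, while the level of *Lamb1* itself had a log2 fold change of -0.01. *Lamc1* made up 98.1% ± 0.391 and 98.8% ± 0.150 of the γ chain level. The exact two-sided permutation p-value was 0.1 for *Lamb1* and for *Lamb2*, which is the smallest that 3 against 3 samples can give, and 0.143 after Benjamini-Hochberg adjustment over 10 chains.

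Basement membrane integrins bind laminins or type IV collagen, mostly with β1 as partner. *Itga3* (ENSMUSG00000001507, chr11:95044474-95076801, minus strand), the α subunit of a receptor for laminins with the α3 or α5 chain, was at 10.5, 12.0 and 13.4 CPM in the TranspCtrl samples. In the TranspExer samples it was at 23.7, 23.8 and 26.8 CPM, all above TranspCtrl. *Itga3* rose from 12.0 ± 1.47 to 24.8 ± 1.74 CPM (SD, n = 3), with a log2 fold change of 1.05 ± 0.12 (SE, edgeR adjusted p = 0.000602). Its fold change was close to the threshold of 2, and the log2 fold change was 0.96 without TranspCtrl replicate 1 and 0.98 without TranspExer replicate 3, which ended the DEG call but not that of the test. Upper-quartile and library-size scaling also ended the DEG call, at a log2 fold change of 0.97 in each. *Itga7* (ENSMUSG00000025348, chr10:128933818-128958282, plus strand), the laminin receptor of muscle and smooth muscle, was at 5.86, 6.93 and 5.58 CPM in TranspCtrl. It was at 3.03, 3.31 and 2.48 CPM in TranspExer, below every TranspCtrl sample. *Itga7* fell from 6.12 ± 0.713 to 2.94 ± 0.422 CPM (SD, n = 3), with a log2 fold change of -1.06 ± 0.17 (SE, edgeR adjusted p = 0.0033). Without TranspCtrl replicate 2 or without TranspExer replicate 3 its log2 fold change was -0.96, under the fold threshold.

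*Itga1*, whose product binds type IV collagen and laminin, was at 50.3, 49.5 and 47.1 CPM in TranspCtrl and 77.9, 84.0 and 83.0 CPM in TranspExer. It rose with a log2 fold change of 0.74 ± 0.07 (SE, edgeR adjusted p = 0.000345). *Pelo* lies within *Itga1* on the same strand, with a mean count of 352 against 1269 for *Itga1*. *Itga6*, the α subunit of laminin receptors in endothelium, platelets and epithelia, had the highest level per length of the basement membrane integrins, at 27.5 and 38.3 CPM per kb. It rose from 248 ± 39.1 to 346 ± 13.1 CPM (SD, n = 3; log2 fold change 0.48 ± 0.12 SE, adjusted p = 0.0196). TranspCtrl replicate 1 was the lowest sample for *Itga6*, at 204 CPM, and without it the log2 fold change was 0.36 (adjusted p = 0.000193). Leaving out TranspExer replicate 1, 2 or 3 gave adjusted p-values of 0.0525, 0.0671 and 0.0757. *Itgb4*, the β subunit that pairs with α6 in hemidesmosomes, was below the filter with 2 to 9 counts per sample.

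Of the other genes of the basement membrane, 16 of 22 listed were tested, of which 9 were higher and 2 lower, beside 16.6% and 15.5% of all tested genes, at a median log2 fold change of 0.51, and 5 were upregulated DEGs, beside 3.50%. The DEGs were *Ntn4*, a netrin that binds laminin γ chains, *Col4a1* and *Col4a2*, the common chains of type IV collagen, *Col15a1* and *Smoc1*. *Ntn4* rose from 4.00 ± 1.25 to 29.7 ± 0.438 CPM (SD, n = 3; log2 fold change 2.89 ± 0.20 SE). *Col4a1* was at 350, 440 and 401 CPM in TranspCtrl and 862, 906 and 949 CPM in TranspExer (log2 fold change 1.19 ± 0.11 SE, adjusted p = 0.000211, edgeR). *Col4a2* had a log2 fold change of 1.15, *Col15a1* one of 1.16 and *Smoc1* one of 1.68. Of the other type IV collagen genes, *Col4a5* did not pass the test (log2 fold change -0.56 ± 0.28 SE, adjusted p = 0.163) and *Col4a3*, *Col4a4* and *Col4a6* were below the filter. Of the nidogen genes, *Nid2* rose with a log2 fold change of 0.55 (adjusted p = 0.0134), and *Nid1* had one of -0.14 ± 0.09 (SE), not past the test. The perlecan gene *Hspg2* had one of 0.30 ± 0.13 (SE), also not past the test. *Sparc*, a matrix protein that binds type IV collagen, fell by 0.89 on the log2 scale.

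Markers of endothelium were set beside these genes. All 16 listed endothelial markers were higher in TranspExer, beside 16.6% of all tested genes, and 13 were upregulated DEGs, beside 3.50%. None of them was at or under the floor. Their summed level was 253 to 307 CPM in TranspCtrl samples and 871 to 910 CPM in TranspExer samples. *Cdh5*, the cadherin of endothelial junctions, was the largest of them in TranspExer and over both groups, with 70.2 ± 17.7 and 284 ± 23.1 CPM (SD, n = 3; log2 fold change 2.02 ± 0.18 SE). In TranspCtrl *Pecam1* was the largest, at 71.6 CPM. The laminin chains of vascular basement membranes, *Lama4* and *Lama5*, had log2 fold changes of -0.07 and 0.06 in the same samples. Of the 11 pericyte and smooth muscle markers, 7 were higher and 3 lower, beside 16.6% and 15.5% of all tested genes. The summed level of this list, 72.6% of it *Acta2* over both groups, was 2555 to 3003 CPM in TranspCtrl and 1881 to 2096 CPM in TranspExer. Of the 12 stromal markers 2 were higher and 7 lower, beside the same shares. The part of these cell types in the integrin and laminin results was not tested. In bulk RNA, fewer cells of a type and less RNA per cell cannot be told apart.

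The platelet fibrinogen receptor is the pair of αIIb and β3. *Itga2b* (ENSMUSG00000034664, chr11:102453297-102470122, minus strand), which encodes αIIb and is a marker of megakaryocytes and their progenitors, was at 30.8, 37.8 and 38.7 CPM in the TranspCtrl samples. It was at 93.6, 104 and 109 CPM in the TranspExer samples, so that the lowest TranspExer sample was well above the highest TranspCtrl sample. *Itga2b* rose from 35.8 ± 4.37 to 102 ± 7.98 CPM (SD, n = 3), with a log2 fold change of 1.52 ± 0.11 (SE, edgeR adjusted p = 8.85e-05). *Itgb3* (ENSMUSG00000020689, chr11:104608000-104670476, plus strand), which encodes the β subunit shared by the platelet receptor and the αv receptor of osteoclasts and endothelium, was at 83.5, 107 and 94.9 CPM in TranspCtrl. It was at 191, 200.1 and 216 CPM in TranspExer, again with no overlap. *Itgb3* rose from 95.2 ± 11.8 to 202 ± 12.8 CPM (SD, n = 3), with a log2 fold change of 1.09 ± 0.11 (SE, edgeR adjusted p = 0.000344). When single samples were left out, the log2 fold change stayed between 1.42 and 1.58 for *Itga2b* and between 1.00 and 1.18 for *Itgb3*, and the adjusted p-value was at most 0.00156 and 0.00374.

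**Figure D3:**
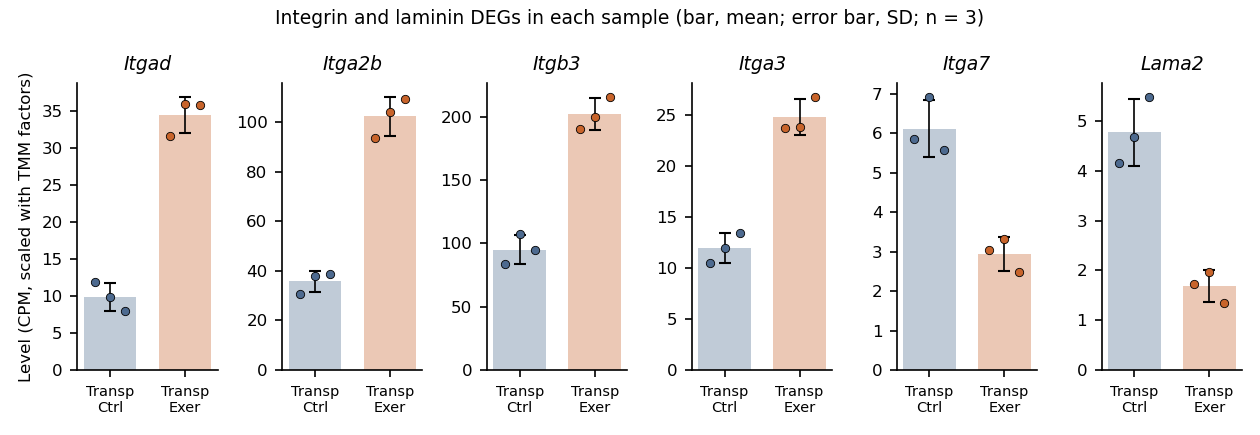
CPM of the 6 integrin and laminin DEGs in each of the 3 TranspCtrl and 3 TranspExer samples (points), with the mean as a bar from 0 and the SD as an error bar, on a vertical axis of its own for each gene. In all 6 panels the groups do not overlap, with TranspExer higher for *Itgad*, *Itga2b*, *Itgb3* and *Itga3* and lower for *Itga7* and *Lama2*.

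Of the 10 megakaryocyte and platelet markers, 8 were higher, 7 of them as DEGs, beside 16.6% and 3.50% of all tested genes. The other 2 did not pass the test. Their summed level was 252 to 311 CPM in TranspCtrl and 445 to 483 CPM in TranspExer, and none was at or under the floor. *Gp1ba*, of the von Willebrand factor receptor, had a log2 fold change of 1.82. *Pf4*, the largest gene of the list in TranspCtrl and over both groups, was at 152 ± 41.7 and 154 ± 12.6 CPM (log2 fold change 0.02 ± 0.18 SE). *Ppbp*, the largest in TranspExer, was at 78.9 ± 3.75 and 188 ± 9.02 CPM (log2 fold change 1.26 ± 0.08 SE). Osteoclasts also carry β3, and 10 osteoclast markers were added as a list after the data were seen. Of these, 6 were lower, 5 of them as DEGs, and 2 higher, 1 of them as a DEG. Of all tested genes 15.5% were lower, with 5.28% as DEGs, and 16.6% higher, with 3.50% as DEGs. *Ctsk* and *Acp5*, which encode enzymes of bone resorption, had log2 fold changes of -2.51 and -1.29. *Atp6v0d2*, of the vacuolar proton pump, and *Tnfrsf11a*, which encodes the receptor RANK, rose with log2 fold changes of 1.02 and 0.94. The part of these cell types in the results for *Itga2b* and *Itgb3* was not tested.

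*Itgav*, the α subunit of RGD-binding receptors for vitronectin, fibronectin and latent TGF-β, was at 180.4, 338 and 313 CPM in TranspCtrl and 433, 436 and 476 CPM in TranspExer. It rose with a log2 fold change of 0.69 ± 0.21 (SE, edgeR adjusted p = 0.0379). TranspCtrl replicate 1 stood far below the other samples, and without it the log2 fold change was 0.46 (adjusted p = 4.31e-05). Without TranspCtrl replicate 3 or TranspExer replicate 1, 2 or 3, the adjusted p-value was 0.0521, 0.0899, 0.0929 and 0.121. The β partners of αv differed among themselves. *Itgb5*, whose product binds vitronectin, was at 344 ± 53.8 and 442 ± 7.68 CPM (SD, n = 3), with no overlap, a log2 fold change of 0.36 ± 0.12 (SE) and an adjusted p-value of 0.0503. Without TranspCtrl replicate 1, its lowest sample, the adjusted p-value was 0.00151 at a log2 fold change of 0.24, and without TranspCtrl replicate 2 it was 0.0468. DESeq2 gave it 0.0261. *Itgb8*, known for the activation of latent TGF-β, fell from 1.82 ± 0.140 to 1.04 ± 0.145 CPM (SD, n = 3; log2 fold change -0.80 ± 0.23 SE, adjusted p = 0.0324), on 15 to 41 counts per sample. DESeq2 gave *Itgb8* an adjusted p-value of 0.0999, and leaving out TranspCtrl replicate 2 or 3 or TranspExer replicate 1, 2 or 3 gave 0.0692 to 0.107. *Itgb6*, an epithelial subunit, had at most 3 counts in any sample, so it was at or under the floor in both groups.

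Collagen is bound by the pairs of α1, α2, α10 or α11 with β1. *Itga11*, the receptor subunit for fibrillar collagen on fibroblasts and stromal cells, was at 194, 225 and 202 CPM in TranspCtrl and 118, 121 and 135 CPM in TranspExer. It fell with a log2 fold change of -0.73 ± 0.09 (SE, edgeR adjusted p = 0.00103), and the groups did not overlap. *Itga2*, the collagen receptor subunit of platelets and epithelia, was at 8.98, 7.85 and 6.70 CPM in TranspCtrl and 11.1, 13.1 and 13.0 CPM in TranspExer. It rose with a log2 fold change of 0.66 ± 0.14 (SE, adjusted p = 0.0104), and without TranspExer replicate 2 or 3 the adjusted p-value was 0.0548 and 0.0550. The collagen receptor subunits thus moved in opposite directions, with *Itga1* and *Itga2* higher and *Itga11* lower. *Itga10*, the receptor subunit of cartilage, had 14 to 40 counts per sample and a log2 fold change of -0.69 ± 0.31 (SE, adjusted p = 0.125). It shares 30.6% of its 50-base sequences with an overlapping gene model, *Gm42957*, which had 0 counts. Among these genes' ligands, *Col1a1* had a log2 fold change of -0.16 ± 0.26 (SE), and *Col1a2* and *Col3a1* fell by 0.61 and 1.28 on the log2 scale.

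*Itgb1*, the β partner of most α subunits, was the member with the highest level, at 279 and 247 CPM per kb in TranspCtrl and TranspExer. It was at 1086, 1178 and 1151 CPM in TranspCtrl and 1023, 1025 and 978 CPM in TranspExer. The groups did not overlap, but the difference did not pass the test (log2 fold change -0.17 ± 0.08 SE, adjusted p = 0.133, edgeR). Without TranspCtrl replicate 1 it did (log2 fold change -0.21, adjusted p = 0.00256), and it also did when counts were scaled by library size alone (log2 fold change -0.26, adjusted p = 0.0276) or to the upper quartile. *Itga5*, the main fibronectin receptor subunit, was at 245, 353 and 333 CPM in TranspCtrl and 343, 349 and 404 CPM in TranspExer, with a log2 fold change of 0.23 ± 0.14 (SE, adjusted p = 0.238). *Itga9*, whose product binds tenascin and VCAM1, rose from 41.7 ± 2.46 to 64.3 ± 6.00 CPM (SD, n = 3; log2 fold change 0.63 ± 0.09 SE, adjusted p = 0.00215). *Itga8*, the nephronectin receptor subunit, had 20 to 37 counts per sample and a log2 fold change of 0.60 ± 0.25 (SE, adjusted p = 0.104). It overlaps the gene model *Gm37701* on the same strand, which had a mean count of 64.3 against 25.6.

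Leukocyte integrins pair β2 with αL, αM, αX or αD, and β7 with α4 or αE. *Itgad* (ENSMUSG00000070369, chr7:128154376-128223816, plus strand), which encodes the αD subunit of macrophages, was at 11.9, 9.86 and 8.04 CPM in the TranspCtrl samples. It was at 31.7, 36.0 and 35.9 CPM in the TranspExer samples, a wide gap with no overlap. *Itgad* rose from 9.92 ± 1.91 to 34.5 ± 2.48 CPM (SD, n = 3), with a log2 fold change of 1.80 ± 0.15 (SE, edgeR adjusted p = 0.000136), which was the largest change among the 33 tested members. When single samples were left out, its log2 fold change ran between 1.67 and 1.95. Of its 50-base sequences, 19.7% occur in another gene, most often in its neighbour *Itgax* (8.43%), so part of its reads could have been counted elsewhere.

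*Itgax*, the αX subunit gene of dendritic cells and tissue macrophages, was at 78.8, 68.8 and 65.7 CPM in TranspCtrl and 115, 121 and 123 CPM in TranspExer. It rose with a log2 fold change of 0.75 ± 0.09 (SE, edgeR adjusted p = 0.000745). *Itgb2*, their common β subunit, was at 455, 402 and 393 CPM in TranspCtrl and 567, 592 and 577 CPM in TranspExer. It rose with a log2 fold change of 0.47 ± 0.09 (SE, adjusted p = 0.00557). *Itgam*, the αM subunit gene of monocytes, macrophages and neutrophils, had the highest level of the β2 partners, at 121 and 127 CPM per kb. Its groups overlapped, with 605 ± 25.8 and 637 ± 22.0 CPM (SD, n = 3; log2 fold change 0.07 ± 0.08 SE, adjusted p = 0.508). It shares 66.3% of its 50-base sequences with the overlapping gene model *Gm49368*, whose mean count of 51.4 compares with 12199 for *Itgam*. *Itgal*, the αL subunit gene of lymphocytes and other leukocytes, moved the other way, with 129.8, 139 and 134 CPM in TranspCtrl and 88.7, 96.9 and 102 CPM in TranspExer. It fell with a log2 fold change of -0.49 ± 0.08 (SE, adjusted p = 0.00369).

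*Itga4*, whose product binds VCAM1 and fibronectin with β1 and MAdCAM1 with β7, was at 148, 136 and 143 CPM in TranspCtrl and 88.0, 98.6 and 96.7 CPM in TranspExer. It fell with a log2 fold change of -0.59 ± 0.08 (SE, edgeR adjusted p = 0.00135), with no overlap between the groups. *Cerkl* overlaps *Itga4* on the opposite strand, with a mean count of 98.8 against 2349. *Itgb7*, its second partner, rose from 24.1 ± 1.04 to 30.5 ± 1.04 CPM (SD, n = 3; log2 fold change 0.34 ± 0.08 SE, adjusted p = 0.0163). Without TranspExer replicate 1, 2 or 3 the adjusted p-value of *Itgb7* was 0.0538, 0.0824 and 0.0542. *Itgae*, the E-cadherin receptor subunit of mucosal T cells and some dendritic cells, had 5 to 13 counts per sample, and no difference was detectable at this depth (log2 fold change -0.26 ± 0.44 SE). It is overlapped on the opposite strand by *Haspin*, which had a mean count of 220 against 8.83.

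The markers of leukocyte types did not move as 1 group. Of 10 macrophage and monocyte markers, 5 were higher and 1 lower, beside 16.6% and 15.5% of all tested genes. The general markers *Ptprc*, *Csf1r* and *Adgre1* had log2 fold changes of 0.06, 0.07 and 0.16, none past the test. The summed level of the 10 markers was 7469 to 11688 CPM in TranspCtrl, with replicate 1 the highest, and 5813 to 6352 CPM in TranspExer. Over both groups, 61.9% of it was *Lyz2*. *Lyz2* was the 1 lower marker and the only DEG of this list. It was at 9102, 4895 and 5238 CPM in TranspCtrl and 3235, 2897 and 2596 CPM in TranspExer (log2 fold change -1.14 ± 0.23 SE, edgeR adjusted p = 0.00873). *Cd68*, a lysosomal protein of macrophages, and *Mertk*, a receptor for dying cells, rose with log2 fold changes of 0.78 and 0.71. Of 10 B cell and plasma cell markers, 8 were lower, 7 of them as DEGs, beside 15.5% and 5.28% of all tested genes. Their summed levels were 3992 to 6437 CPM in TranspCtrl, with replicate 1 the highest, and 963 to 1039 CPM in TranspExer. None of the macrophage, B cell and plasma cell markers was at or under the floor, and the part of these cells in the results for *Itgad*, *Itgax*, *Itgal* and *Itga4* was not tested.

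Each α subunit pairs with only certain β subunits. Each β subunit gene was expressed as a share of the summed level per length of all 8 β subunit genes. *Itgb1* made up 51.5%, 52.1% and 52.1% in the TranspCtrl samples and 41.6%, 40.9% and 39.7% in the TranspExer samples, a difference of -11.2 points. *Itgb2* made up 25.5% ± 2.91 and 31.3% ± 0.356, *Itgb5* 18.0% ± 2.28 and 20.5% ± 0.440, and *Itgb3* 2.99% ± 0.271 and 5.65% ± 0.370 (SD, n = 3). The order of the β subunits was the same in both groups, with *Itgb1* first, then *Itgb2*, *Itgb5*, *Itgb3* and *Itgb7*. The exact two-sided permutation p-value was 0.1 for each of these 5 genes, the smallest the design allows, and 0.117 after adjustment over 7 genes.

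Within the partners of β2, *Itgam* held 76.3% ± 0.353 of the α subunit level in TranspCtrl and 72.9% ± 0.645 in TranspExer (SD, n = 3). *Itgal* was next in TranspCtrl, at 13.0% ± 0.874 against 9.36% ± 0.505 for *Itgax*. In TranspExer this order was turned round, with 14.3% ± 0.242 for *Itgax* and 8.39% ± 0.315 for *Itgal*. *Itgad* held 1.39% ± 0.212 and 4.40% ± 0.219. Of the α partners of β3, *Itga2b* held 25.1%, 18.1% and 19.6% in the TranspCtrl samples and 29.9%, 32.0% and 31.1% in the TranspExer samples, and *Itgav* held the rest. Each of these 6 shares had an exact two-sided permutation p-value of 0.1, before and after adjustment. These partner shares were added after the data were seen.

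**Figure D4:**
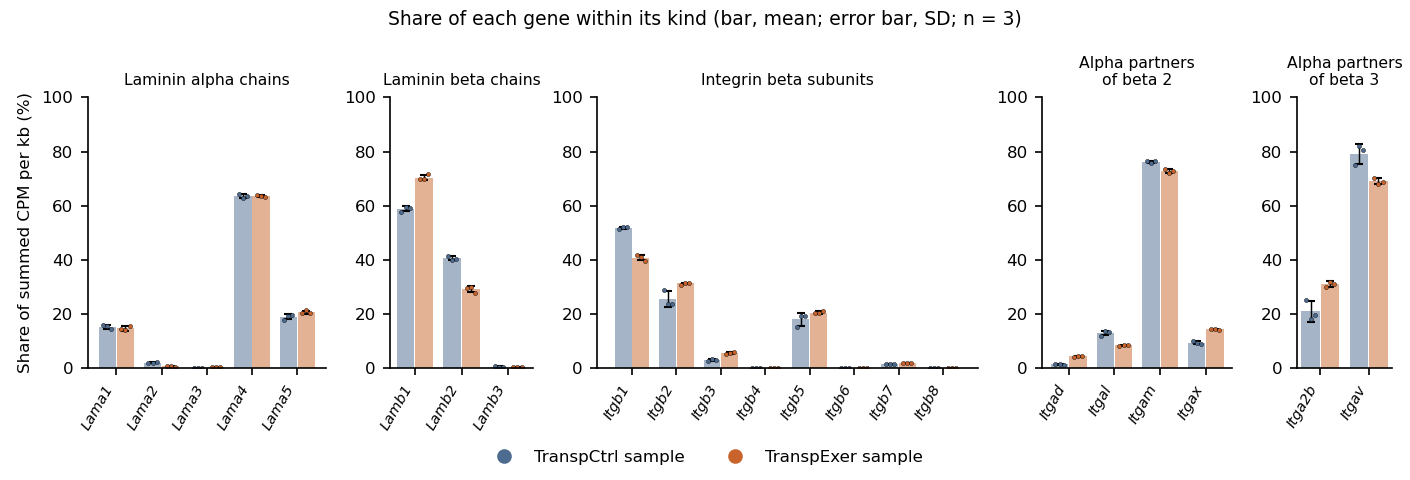
Share (%) of each gene in the summed CPM per kb of its kind for laminin α and β chains, integrin β subunits and the α partners of β2 and β3, as mean bars from 0 with the SD and 1 point a sample (n = 3 a group). The shares of *Lamb1* and *Lamb2* and that of *Itgb1* differ by about 11 points between the groups (11.5, -11.4 and -11.2), while *Lama4* stays at 63.6% and 63.5%.

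Of 22 listed ligand genes outside the basement membrane 15 were tested, of which 4 were higher and 4 lower, beside 16.6% and 15.5% of all tested genes, with a median log2 fold change of -0.09. The upregulated DEG was *Vwf*, an endothelial and platelet ligand of αIIbβ3, with 20.4 ± 5.75 and 71.8 ± 6.43 CPM (SD, n = 3; log2 fold change 1.81 ± 0.20 SE, adjusted p = 0.000495, edgeR). The downregulated DEG was *Col3a1*, a fibrillar collagen, with 3044 ± 193 and 1253 ± 34.7 CPM (log2 fold change -1.28 ± 0.09 SE, adjusted p = 8.1e-05). *Fn1*, the fibronectin gene, fell by 0.70 on the log2 scale, and *Vcam1*, the endothelial and stromal ligand of α4β1 and α9β1, rose with a log2 fold change of 0.65. Its receptor subunits *Itga9* and *Itga4* had log2 fold changes of 0.63 and -0.59. *Vtn*, *Fga*, *Fgb* and *Madcam1* were at or under 3 counts in every sample.

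Adaptors and activators, which link the β tails to actin or set their affinity, numbered 34 tested genes. Of these 17 were higher and 1 lower, beside 16.6% and 15.5% of all genes, with a median log2 fold change of 0.28, and 1 was an upregulated DEG, beside 3.50%. The DEG was *Parvb*, which encodes β-parvin of the complex with integrin-linked kinase, with 34.3, 52.0 and 54.3 CPM in TranspCtrl and 106, 113 and 122 CPM in TranspExer (log2 fold change 1.28 ± 0.16 SE, adjusted p = 0.00113, edgeR). The kindlin genes moved in opposite directions, since *Fermt3*, the kindlin of blood cells, rose with a log2 fold change of 0.57 and *Fermt2*, that of stromal and epithelial cells, fell by 0.30 on the log2 scale. *Tln1*, the main talin gene, rose with a log2 fold change of 0.52, and *Tln2* did not pass the test (log2 fold change -0.22, adjusted p = 0.181). Of the Rap1 genes, which encode small GTPases upstream of talin, *Rap1b* rose with a log2 fold change of 0.74 and *Rap1a* had one of -0.21 (adjusted p = 0.160).

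**Figure D5:**
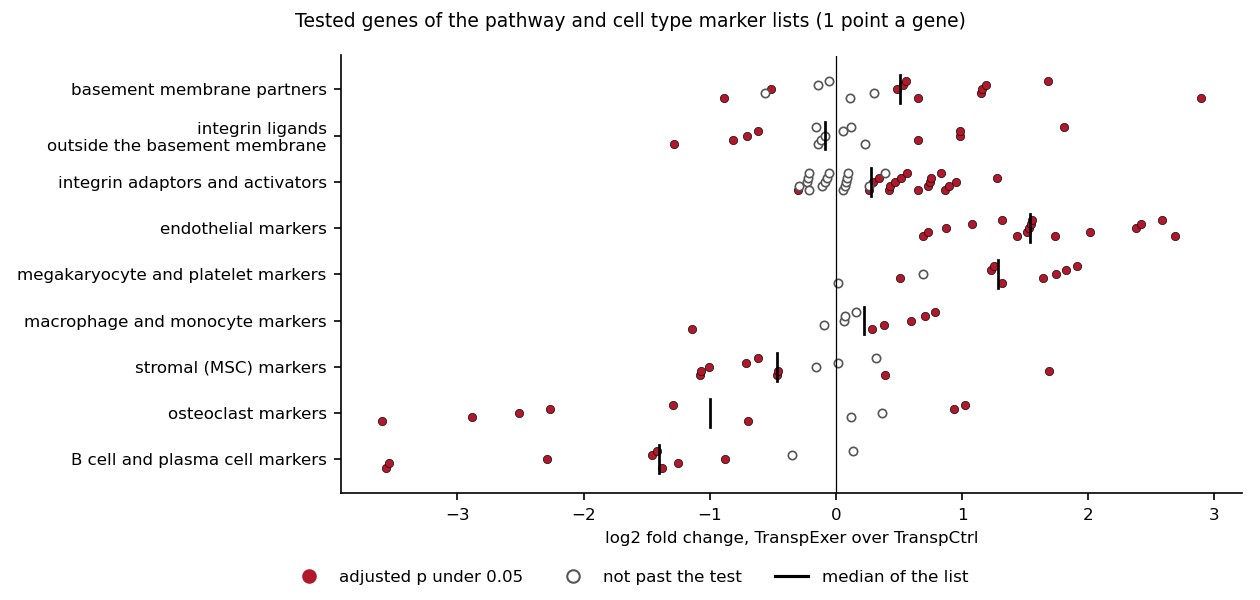
Log2 fold change (TranspExer over TranspCtrl, horizontal axis) of every tested gene in 3 pathway lists and 6 cell type marker lists (rows), with 1 point a gene, filled where the adjusted p-value is under 0.05, and the median as a line. All 16 endothelial markers lie above 0, 8 of 10 B cell and plasma cell markers are filled and below 0, and macrophage markers lie on both sides.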

How the data were processed

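RNA-Seq was examined in 3 TranspCtrl and 3 TranspExer samples, grouped by the sample labels. The authors deposited expected counts (estimated counts per gene, not normalized) for 56980 genes. The submitters' processing notes name the build mm10. The aligner, the counting tool and the annotation are not given in the sources used here, nor is it stated whether counting used strand. The study's methods and the labels name different library kits.

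Expected counts were rounded to whole numbers. All 15190 genes left by filterByExpr were tested with edgeR 4.0.16 (R 4.3.3, TMM, quasi-likelihood test, condition as the only term). The thresholds for DEGs were 0.05 for the Benjamini-Hochberg adjusted p-value and 2 for the absolute fold change. The F statistic gave the standard error (SE) of each log2 fold change. In simulated data with 200 of 15190 genes changed by 1.5 on the log2 scale, edgeR recovered 91.5% and 1.08% of its calls were false, and DESeq2 recovered 91.0% with 1.62% false. The simulation used the spread per gene that edgeR had estimated, with fewer changed genes than were called here and no outlying sample. Its rates therefore need not hold for the calls above. Coordinates, union exon lengths, overlaps and shared sequences of 50 bases came from GENCODE M21 (GRCm38), which held 52073 of the gene identifiers and all 37 members. Shares were compared by exact permutation tests in SciPy 1.17.1. Marker sums and shares used TMM-scaled CPM.

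The members and gene lists were chosen with earlier results of these data known. Some genes, 1 tested member among them, are not reported here. All members past the test were named, DEGs with every sample, and the DEGs of each pathway list. Genes named outside this rule were chosen after their values were seen. The alternatives were DESeq2 1.42.0, upper-quartile and library-size scaling, other filters on low counts, the fold change tested in the model, the replicate number as a block, each sample left out, and other gene lengths. The lengths listed in the deposited table, the partner shares and the osteoclast list were added after seeing the data.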

Additional observations from a re-analysis of the deposited data

How the results depend on the processing

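With 3 samples a group, the calls for *Itgav*, *Itga6*, *Itga2*, *Itgb7* and *Itgb8* were each lost when some single sample was left out, and those for *Itgb5* and *Itgb1* were gained, whereas the adjusted p-value of all 6 DEGs stayed under 0.05 in every fit without 1 sample. Members higher at an adjusted p-value under 0.05 numbered 8 to 13 without single samples and members lower 6 to 8, beside 8.42% to 22.1% and 8.48% to 19.6% of all genes, upregulated DEGs 3 to 4 and downregulated DEGs 1 to 2. With the fold change of 2 tested within the model, 2 upregulated DEGs (*Itga2b* and *Itgad*) and 0 downregulated DEGs were left (1, *Lama2*, at an unadjusted p-value under 0.05), a stricter test by construction. Among all genes that edgeR test left 138 and 274. DESeq2 was not run in that form, and with the fold as a cut-off after its test it gave 4 upregulated and 2 downregulated DEGs. Upper-quartile and library-size scaling moved the median log2 fold change of all genes from -0.018 to -0.097 and -0.10, and the shifts under them are to be read against that. Scaling by library size only moved the median log2 fold change of the laminin chains and basement membrane integrins to -0.15, and *Itga3* had a log2 fold change of 0.97 there. The median of the other integrins ran from 0.35 to 0.55 without single samples. The direction turned for *Itgam* (-0.0083 with upper-quartile and -0.016 with library-size scaling) and *Lama5* (-0.018 and -0.025), and without single samples for *Lamb1* (-0.054 to 0.056) and *Itgae* (-0.57 to 0.016), none of which passed the test. With the longest transcript or the listed length in place of union exons, the *Lamb1* share differed by 9.61 and 9.60 points, and with the listed length the *Lamc1* share by 1.03 points. The replicate number as a block gave 13 higher and 6 lower members, beside 16.4% and 14.6% of all genes, with *Itgb5* gained (adjusted p = 0.0449) and *Itgb8* lost (adjusted p = 0.0677). Equal numbers are not stated to be paired, and the deviations of same-numbered samples from their group means correlated at 0.025, -0.0017 and 0.042. The cause of these changes was not tested. Counts at or under the floor limit *Lamc3* and *Itgb6*, and under 50 counts per sample the standard errors of *Itga8*, *Itga10*, *Itgae*, *Itgb8* and *Lamb3* were 0.23 to 0.44.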

Other observations

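The lists of cell types not set beside a result above gave mixed values. Over all tested genes, 16.6% were higher and 15.5% lower, and 3.50% were upregulated DEGs. Of 10 eosinophil, basophil and mast cell markers, 9 were higher in TranspExer, 6 of them as DEGs. Their summed levels were 61.9 to 80.3 CPM in TranspCtrl and 178 to 189 CPM in TranspExer. *Prg2*, a granule protein of eosinophils, was the largest gene of that list in TranspExer and over both groups, at 7.76 CPM in TranspCtrl and 52.0 CPM in TranspExer. In TranspCtrl *Ccr3* was the largest, at 15.7 CPM. Of 9 neutrophil markers 1 was higher and 2 lower, and of the 6 tested dendritic cell markers 2 were higher and 1 lower. Of 11 T and NK cell markers 2 were higher and 2 lower. The erythroid, Schwann cell and neural, and epithelial lists had 1, 3 and 2 tested genes, and *Hbb-bs*, *Klf1*, *Alas2*, *Sox10*, *Gfap*, *Krt5*, *Krt14*, *Krt8* and *Cldn4* had 3 counts or fewer in every sample.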
